A study of Mus musculus with 6 samples.

Results

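The 10 genes described here carry out antigen presentation on major histocompatibility complex (MHC) molecules: H2-D1, H2-K1, H2-T23, B2m, Tap1, Tap2, Tapbp, Psmb8, Psmb9 and Cd74. They were taken by symbol from a table of 16060 rows, and 10 of 10 were found, each on 1 row. The table holds messenger RNA levels in the hippocampus of C57BL/6 mice, with 3 libraries labelled MA and 3 labelled Control and 1 library for each mouse. MA stands for methamphetamine. The study's methods describe adult males that received intraperitoneal MA in doses that rose from week to week, or intraperitoneal saline in the Control group. All mice went through behavioural tests of anxiety before the hippocampus was taken. No exact age is given, and nothing says whether the mice of a group shared a cage or a day of dissection. The deposited values lie on a log2 scale, read as the log2 of a length-normalised level (RPKM) plus 1. The table gives no sequencing totals, and the depth behind each value is therefore unknown. The question was whether these genes differed between the MA and Control hippocampus.

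None of the 10 genes passed the test between MA and Control. The test was limma, a linear model with a moderated variance, over the 13321 genes whose linear level reached 0.5 in 3 or more of the 6 libraries, with Benjamini-Hochberg adjustment. All 10 genes met that filter. At an adjusted p under 0.05, 0 of the 10 were called, against 0.263% of all tested genes (22 higher and 13 lower in MA). At an unadjusted p under 0.05, 1 of the 10 was called, against 10.4% of all tested genes. That gene was Tap1, the only one of the 10 whose 3 MA libraries all lay above the 3 Control libraries, a pattern shown by 7.32% of tested genes. For 0 of the 10 did all MA libraries lie below all Control libraries, a pattern shown by 10.2% of tested genes. The log2 difference was above 0 for 5 genes and below 0 for 5, with a median of -0.01, and the median of all tested genes was also -0.01.

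Of the 10 genes, 8 lie in the MHC on chromosome 17, B2m lies on chromosome 2 and Cd74 on chromosome 18 (GENCODE M21 on GRCm38). H2-K1 (ENSMUSG00000061232) spans chr17:33996017-34000347 on the minus strand. H2-D1 (ENSMUSG00000073411) spans chr17:35262730-35267499 on the plus strand. H2-T23 (ENSMUSG00000067212) spans chr17:36029773-36032855 on the minus strand. B2m (ENSMUSG00000060802) spans chr2:122147686-122153083 on the plus strand. A cluster of 4 antigen-processing genes follows in a row: Psmb9 (ENSMUSG00000096727, chr17:34181987-34187764, minus strand), Tap1 (ENSMUSG00000037321, chr17:34187553-34197225, plus strand), Psmb8 (ENSMUSG00000024338, chr17:34197721-34201454, plus strand) and Tap2 (ENSMUSG00000024339, chr17:34203527-34216321, plus strand). Tapbp (ENSMUSG00000024308) spans chr17:33915899-33929292 and Cd74 (ENSMUSG00000024610) spans chr18:60803848-60812652, both on the plus strand.

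MHC class I molecules stand on the surface of nearly all nucleated cells and hold a short peptide cut from proteins made inside the cell, which CD8 T cells inspect. The heavy chain pairs with beta-2 microglobulin. Its peptides are cut by the proteasome, moved into the endoplasmic reticulum by the TAP transporter and loaded with the help of tapasin. Interferons raise most of these genes together, among them proteasome subunits that replace the constitutive ones. In the brain, class I is found on endothelium and microglia, and also on neurons of the hippocampus, where it has been tied to synapse development and plasticity. Class II molecules hold peptides from engulfed proteins, are largely limited to professional antigen-presenting cells, and depend on the invariant chain, encoded by Cd74.

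The upstream sequences of the class I genes are shown because H2-K1, H2-D1 and B2m share an element there and the product of B2m pairs with both heavy chains. RefSeq windows (GRCm38.p6) of 300 bases, 250 before and 50 after the gene's start, were at hand for 8 of the 10 genes, all but Tap2 and Cd74. In the X and Y boxes of class I promoters, TGACG is the half-site of the CREB/ATF factors and ATTGG is the reverse complement of CCAAT, the motif of nuclear factor Y. Searched on both strands, TGACG followed by 20 bases of any kind and ATTGG stood in 27 of 27025 genes' windows (0.0999%). Among the 8 windows it stood in those of H2-K1, H2-D1 and B2m, and among 11 windows of other class I chains in that of H2-M3. The 3 stretches of 30 bases, with both boxes in capitals, read 5′ to 3′ on the gene's strand:
H2-K1 chr17:34000359-34000388 (minus strand): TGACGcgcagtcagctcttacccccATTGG
H2-D1 chr17:35262993-35263022 (plus strand): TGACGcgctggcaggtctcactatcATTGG
B2m chr2:122147609-122147638 (plus strand): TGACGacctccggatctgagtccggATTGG
H2-K1 and H2-D1 had the same base at 23 of the 30 positions, H2-K1 and B2m at 13, and H2-D1 and B2m at 12. The element began 41 bases before the more upstream RefSeq start in H2-K1, 101 in H2-D1 and 78 in B2m.

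H2-K1 and H2-D1 shared a further stretch of 30 bases, identical at 29 positions. It holds GGGATTCCC, a form of the motif of nuclear factor kappa B, and TTTCACTTC, a core of the interferon-stimulated response element, both in capitals:
H2-K1 chr17:34000429-34000458 (minus strand): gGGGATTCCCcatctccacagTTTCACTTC
H2-D1 chr17:35262923-35262952 (plus strand): gGGGATTCCCcatctcctcagTTTCACTTC
On both strands, GGGATTCCC stood in 112 of the 27025 genes' windows (0.414%) and TTTCACTTC in 161 (0.596%). Among 11 windows of other class I chains, GGGATTCCC stood in 2 (H2-Q6 and H2-Q7). TTTCACTTC stood in 5 of the 11 (H2-M3, H2-Q4, H2-Q6, H2-Q7 and H2-Q10). B2m holds neither, but it holds GAAA, 2 bases of any kind and GAAA, another form of the interferon element. H2-T23 holds this form too, as the reverse complement, so it stood in 2 of the 8 windows. It stood in 3.99% of all genes' windows, in 1 of 11 windows of other class I chains (H2-T22) and in 12 of 19 windows of a list of interferon-stimulated genes. The 250 bases before the start of H2-K1 and of B2m are printed whole to show how these motifs are arranged, with the motifs named above in capitals:
H2-K1 chr17:34000348-34000597 (minus strand): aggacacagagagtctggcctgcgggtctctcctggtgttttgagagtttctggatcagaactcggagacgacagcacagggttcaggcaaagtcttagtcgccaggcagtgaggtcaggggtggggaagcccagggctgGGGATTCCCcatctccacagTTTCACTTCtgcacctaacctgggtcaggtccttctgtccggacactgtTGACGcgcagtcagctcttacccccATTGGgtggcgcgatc
B2m chr2:122147437-122147686 (plus strand): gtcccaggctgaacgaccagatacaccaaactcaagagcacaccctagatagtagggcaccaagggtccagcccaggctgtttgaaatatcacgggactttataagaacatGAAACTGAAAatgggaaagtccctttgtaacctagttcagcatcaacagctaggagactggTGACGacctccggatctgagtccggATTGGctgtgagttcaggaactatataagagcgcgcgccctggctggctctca
Within these bases, the TGACG and ATTGG boxes are the motifs nearest the start in both genes. A match of letters describes the window and does not show that a factor was bound in these mice.

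Tap1 and Psmb9 are read in opposite directions from neighbouring starts, with 225 bases between the RefSeq start sites, so the sequence between them is upstream of both by those starts. By the GENCODE span given above it lies within Psmb9. A CCAAT and a TGACG, without the spaced arrangement of the class I genes, stand in it and are shown for Tap1 in capitals within 30 bases each:
Tap1 chr17:34187468-34187497 (plus strand): ggTGACGacagagggtcctgccctcaatct
Tap1 chr17:34187334-34187363 (plus strand): CCAATcagcggctgcgcgcggtgcaggcaa
TGACG alone stood in the windows of 6228 of the 27025 genes and in 5 of the 8, and CCAAT alone in those of 11096 (41.1%) and in 7 of the 8. These counts include the boxes of the spaced element.

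Facts of the whole series bear on every value that follows. The libraries had been brought to a common distribution by an undescribed step, with medians of 2.763 to 2.775 and 1 shared highest value of 12.3 (log2). MA replicate 3 stood apart. It had 0 genes at 0, where the other libraries had 259 to 437, and its mean Pearson correlation with its own group was 0.978, against 0.984 to 0.993 for the others. The marker lists of choroid plexus and of red blood cells moved with the group. All 8 choroid plexus markers (4 with an adjusted p under 0.05) and all 5 tested red blood cell markers (3 with an adjusted p under 0.05) were higher in every MA library than in every Control library. Their summed linear levels were 66.1 to 421 in Control and 1780 to 5080 in MA for choroid plexus, and 1600 to 2020 against 3320 to 4380 for red blood cells. Thalamus markers had log2 differences above 0 for 6 of 6 (median 0.58), with sums of 32.0 to 52.9 in Control. In MA the sums were 107 and 100 in replicates 1 and 2, and 52.9 in replicate 3, next to 52.9 in Control replicate 3. Only 1 of the 6 markers, Calb2, was higher in every MA library (log2 difference 1.44, limma adjusted p = 0.203). Hippocampal neuron markers were present, with sums of 918 to 1020 in Control and 867 to 1030 in MA, in which Slc17a7 is the most abundant. Of these 8 markers 7 had a log2 difference below 0, and Neurod6 and Wfs1 were lower in every MA library (-0.43 and -0.30, adjusted p = 0.290 and 0.413). In whole tissue, fewer cells of a type and less RNA per cell cannot be told apart. The part of tissue makeup in the differences below was not tested.

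H2-K1 and H2-D1 encode the classical class I heavy chains, which bind the peptide. H2-D1 measured 5.07, 5.01 and 5.21 in the Control libraries (log2) and 4.94, 4.82 and 5.25 in the MA libraries. MA replicate 3 held the highest value and MA replicate 2 the lowest, so the MA libraries enclosed the Control range. MA differed from Control by -0.10 on the log2 scale (SE 0.13, 95% interval -0.39 to 0.20, limma adjusted p = 0.85), or a linear mean of 33.3 in Control against 31.3 in MA. Without MA replicate 3 the log2 difference of H2-D1 was -0.22 with an unadjusted limma p of 0.0396 (adjusted p = 0.192), in a fit where 23.3% of all tested genes had an unadjusted p under 0.05. Without MA replicate 2 it was -0.0053, and without Control replicate 3 it was -0.038. H2-K1 measured 4.73, 4.69 and 4.89 in Control and 4.83, 4.69 and 4.80 in MA. Its groups overlapped throughout, and both linear means were 26.3. Its log2 difference was 0.0027 (SE 0.09, 95% interval -0.21 to 0.21, limma adjusted p = 0.996), and 98.6% of all tested genes had a larger difference in size.

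B2m encodes beta-2 microglobulin, the light chain that class I molecules generally need to reach the surface in full number. It was the highest of the 10 genes, at 7.34, 7.19 and 7.24 in Control and 7.19, 7.09 and 7.21 in MA (log2). The highest value was Control replicate 1, 2 of the MA libraries lay below the Control range and MA replicate 3 within it. The linear mean was 152 in Control and 142 in MA, and the log2 difference was -0.10 (SE 0.08, 95% interval -0.28 to 0.08, limma adjusted p = 0.718).

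H2-T23 encodes Qa-1, a nonclassical class I molecule that presents leader peptides of other class I chains to receptors on natural killer cells. It measured 3.11, 3.32 and 3.42 in Control and 3.45, 3.25 and 3.69 in MA (log2). MA replicate 2 lay inside the Control range and the other MA libraries above it. For H2-T23 the log2 difference was 0.18 (SE 0.14, 95% interval -0.15 to 0.51, limma adjusted p = 0.714). It was 0.070 without MA replicate 3, 0.093 without Control replicate 1 and 0.29 without MA replicate 2. Part of these chains' sequence is common to their relatives: 12.8% of the 50-base words in H2-D1 transcripts, 9.63% of those in H2-K1 and 14.5% of those in H2-T23 also stood in transcripts of other genes, so their levels are uncertain to that extent. For B2m the share was 0%.

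**Figure D1:**
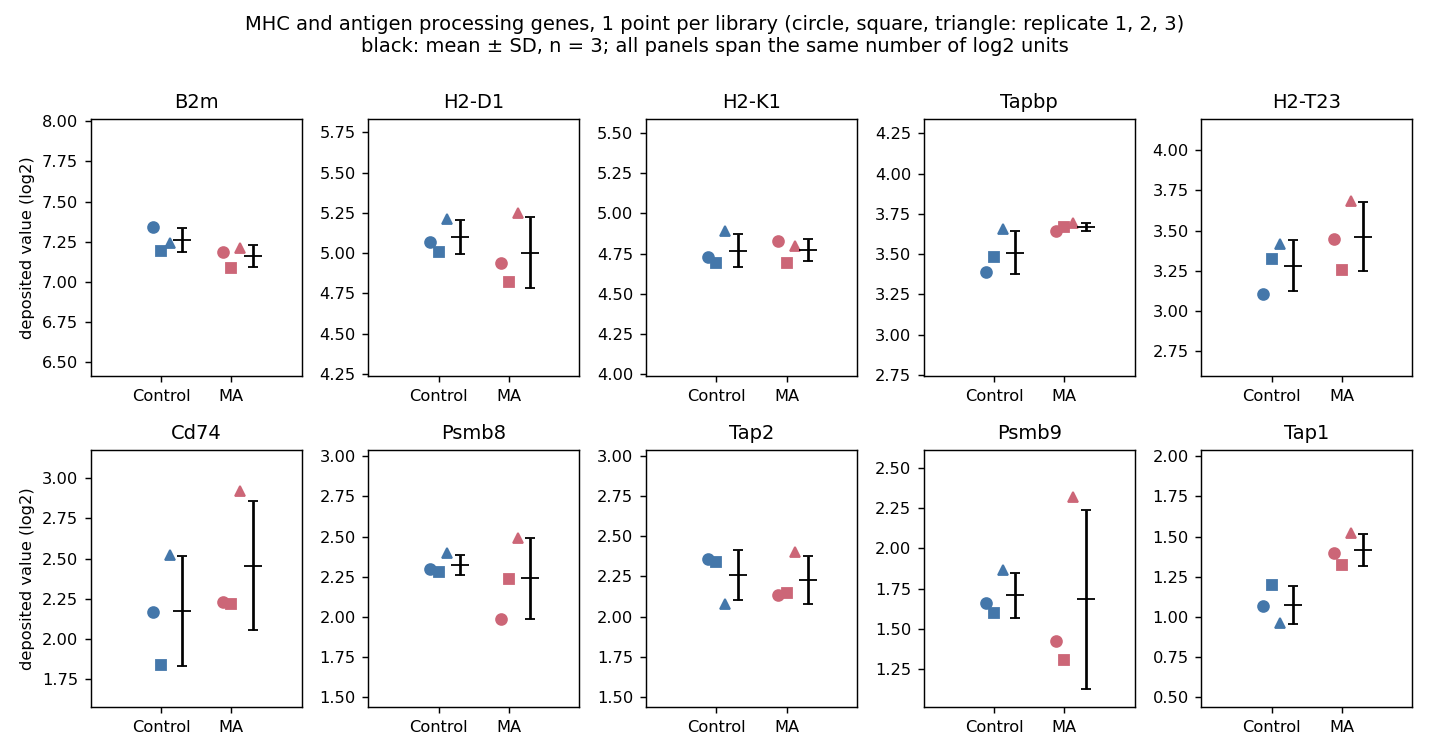
Deposited value (log2) of each of the 10 genes in every library, ordered by mean level, with Control in blue and MA in red and the marker shape giving the replicate number. The black bars are the mean ± SD (n = 3). All panels span the same number of log2 units, and only for Tap1 do all 3 MA points lie above all 3 Control points.

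The balance between the class I chains was compared within each library as the log2 ratio of linear levels. H2-K1 stood to H2-D1 at -0.35, -0.33 and -0.34 in Control and at -0.11, -0.13 and -0.47 in MA. The Control libraries lay within a narrow band, MA replicates 1 and 2 above it and MA replicate 3 below it. The mean difference was 0.10 (exact two-sided permutation test, p = 0.4, and 0.875 after Benjamini-Hochberg adjustment over the 7 ratios compared). Without MA replicate 3 the difference was 0.22, and the exact permutation p was 0.1. B2m stood to the mean of both heavy chains at 2.37 ± 0.13 (SD, n = 3) in Control and 2.31 ± 0.08 (SD, n = 3) in MA, and an exact permutation test gave p = 0.5.

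Of 21 further class I and class I-like genes, 16 were in the table and 13 passed the filter. None had an adjusted p under 0.05. Of the 13 log2 differences 9 were above 0, as were those of 6296 of all 13321 tested genes, and the median was 0.02. At an unadjusted p under 0.05, 1 was higher, against 4.99% of all tested genes. That one was Hfe, which encodes a class I-like regulator of iron uptake that pairs with B2m. It measured 1.75, 1.96 and 1.89 in Control and 2.05, 2.15 and 2.67 in MA (log2), with no overlap, a log2 difference of 0.42 and a limma adjusted p of 0.464. Fcgrt, the neonatal Fc receptor, also pairs with B2m and was higher in all MA libraries by 0.19 (log2, adjusted p = 0.592). H2-T22 differed by 0.01 and H2-Q4 by -0.05 (log2, adjusted p = 0.989 and 0.937).

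Tap1 and Tap2 encode the subunits of the peptide transporter, which works only as the pair. Tap1 was the lowest of the 10 genes, at 1.07, 1.20 and 0.96 in Control and 1.40, 1.32 and 1.52 in MA (log2). On the linear scale these are 1.10, 1.29 and 0.948 in Control against 1.64, 1.50 and 1.87 in MA, a ratio of means of 1.50. All MA libraries lay above all Control libraries. The log2 difference was 0.34 (SE 0.12, 95% interval 0.07 to 0.61), the unadjusted limma p was 0.0204 and the adjusted p was 0.375. The exact permutation p was 0.1, the smallest that 3 against 3 libraries allow, and 8.8% of all tested genes had a larger difference in size. The sign held in every alternative, but the unadjusted p rose to 0.0511 without Control replicate 1 and to 0.0761 without Control replicate 3. Choroid plexus and red blood cell markers moved the same way between the groups, and their part was not tested.

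Tap2 measured 2.36, 2.34 and 2.08 in Control and 2.14, 2.15 and 2.40 in MA (log2). The groups overlapped, with MA replicate 3 highest and Control replicate 3 lowest. Its log2 difference was -0.03 (SE 0.13, 95% interval -0.33 to 0.27, limma adjusted p = 0.958). The ratio of Tap1 to Tap2 was -1.91, -1.65 and -1.76 in Control and -1.05, -1.19 and -1.19 in MA (log2 of linear levels). No MA library reached down to the Control range, which averaged -1.77 ± 0.13 against -1.15 ± 0.08 in MA (SD, n = 3 each). The mean difference of 0.63 had the smallest exact permutation p of 0.1, and 0.35 after adjustment over the 7 ratios. It ranged from 0.56 to 0.69 as each library was left out in turn. The ratio uses linear levels without the added 1, so its scale differs from that of the single genes. With 0.01 added instead of 1, the log2 difference was 0.59 for Tap1 and -0.04 for Tap2.

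Some of the annotated sequence of these neighbours is shared. Tap1 and Psmb9 have 212 exonic bases in common on opposite strands, which is 3.9% of the exonic bases of Tap1 and 5.8% of those of Psmb9. Tap2 overlaps the antisense transcripts Gm15821 by 533 bases (14.1% of its exonic bases) and Gm20496 by 165 (4.4%). No source used here says whether reads were counted by strand. Whether the reads of such pairs were told apart is therefore unknown, and the levels are uncertain to that extent.

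Tapbp encodes tapasin, which holds the empty class I molecule next to the transporter. It measured 3.39, 3.48 and 3.65 in Control and 3.65, 3.67 and 3.69 in MA (log2). The MA values lay close together, 2 of them above the highest Control value and MA replicate 1 just under it. Tapbp had a log2 difference of 0.16 (SE 0.10, 95% interval -0.07 to 0.39, limma adjusted p = 0.627), or a linear mean of 10.4 in Control against 11.7 in MA. Tapbp shares 904 exonic bases (24.9%) with Gm19412 on the other strand, the largest such share among the 10.

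**Figure D2:**
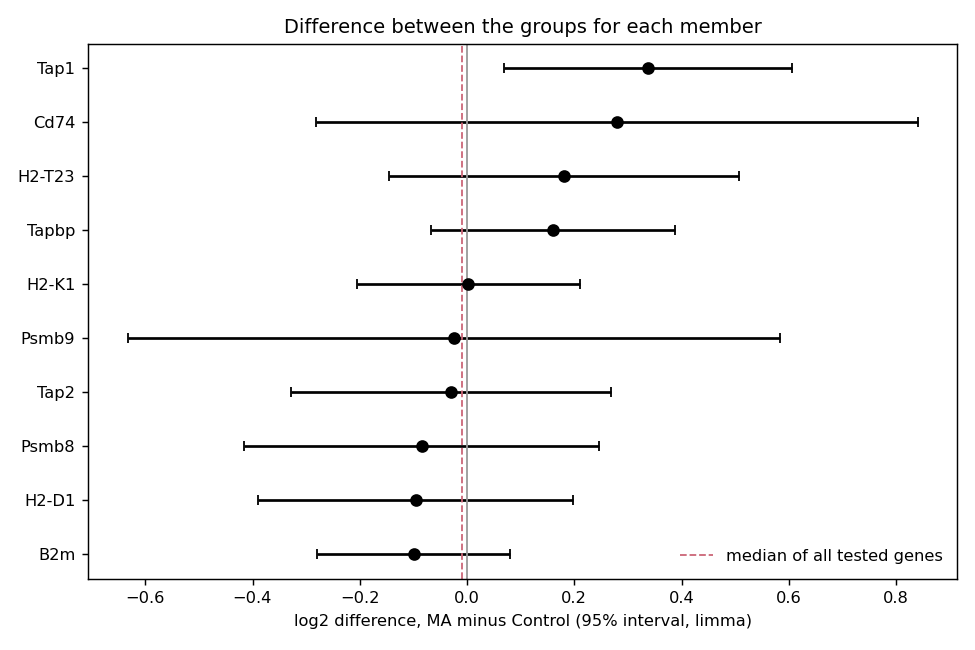
Log2 difference, MA minus Control, for each of the 10 genes with its 95% interval from limma; the dashed line is the median of all tested genes. The interval of Tap1 lies above 0 before adjustment and the intervals of the other 9 genes include 0.

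Psmb8 and Psmb9 encode the inducible catalytic subunits of the immunoproteasome, which take the places of Psmb5 and Psmb6 in the constitutive core. Psmb8 measured 2.30, 2.28 and 2.40 in Control and 1.99, 2.24 and 2.49 in MA (log2). MA replicate 1 was the lowest and MA replicate 3 the highest, so the groups overlapped. Psmb8 had a log2 difference of -0.08 (SE 0.14, 95% interval -0.41 to 0.25, limma adjusted p = 0.893). Psmb9 measured 1.66, 1.60 and 1.87 in Control and 1.42, 1.31 and 2.32 in MA. Its MA libraries were split, with replicates 1 and 2 below every Control library and replicate 3 above every one. The SD was 0.14 in Control and 0.56 in MA (n = 3 each), the widest within any group of the 10 genes. The log2 difference was -0.03 (SE 0.26, 95% interval -0.63 to 0.58, limma adjusted p = 0.985). Without MA replicate 3 it was -0.34 with an unadjusted limma p of 0.0267 (adjusted p = 0.161), in the fit where 23.3% of tested genes had an unadjusted p under 0.05.

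The constitutive subunits were far more abundant on the length-normalised scale. Psmb5 averaged 7.80 in Control and 7.74 in MA (log2, limma adjusted p = 0.881), and Psmb6 averaged 7.80 and 7.75 (adjusted p = 0.909). Psmb8 stood to Psmb5 at -5.79 ± 0.15 in Control and -5.84 ± 0.17 in MA (log2 ratio of linear levels, SD, n = 3 each), and the exact permutation p was 0.8. Psmb9 stood to Psmb6 at -6.62 ± 0.20 in Control and -6.64 ± 0.60 in MA, and the exact permutation p was 0.9. The constitutive subunits thus lay above their inducible counterparts in all 6 libraries. Psmb7 averaged 7.13 in Control and 7.17 in MA (log2, adjusted p = 0.893), and Psmb10, which replaces it in the immunoproteasome, averaged 5.15 and 5.04 (log2 difference -0.11, 95% interval -0.49 to 0.28, adjusted p = 0.879). Psmb10 also had its highest value, 5.42, in MA replicate 3. So did the constitutive subunits Psmb5 at 7.89 and Psmb6 at 7.97, whereas Psmb7 was highest in MA replicate 2 at 7.19 (log2). Psmb8 shares 498 exonic bases (14.7%) with the antisense transcript Gm20496.

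Cd74 encodes the invariant chain, which shields the class II groove and guides class II molecules to the compartment where peptides are loaded. It measured 2.17, 1.84 and 2.52 in Control and 2.23, 2.22 and 2.92 in MA (log2). MA replicate 3 was highest, and the other MA libraries lay within the Control range. The log2 difference was 0.28 (SE 0.24, 95% interval -0.28 to 0.84, limma adjusted p = 0.744), or a linear mean of 3.60 in Control against 4.63 in MA. It was 0.048 without MA replicate 3, 0.11 without Control replicate 2 and 0.45 without Control replicate 3, and the unadjusted p was above 0.05 in each. Its partners H2-Aa and H2-Ab1 encode the alpha and beta chains of a class II molecule. H2-Aa averaged 1.26 in Control and 1.46 in MA (log2 difference 0.20, adjusted p = 0.823). H2-Ab1 measured 1.22, 1.16 and 1.60 in Control and 1.59, 1.51 and 2.17 in MA, a log2 difference of 0.44 (95% interval -0.04 to 0.91, adjusted p = 0.521).

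The ratio of Cd74 to H2-Ab1 separated the groups. It was 1.40, 1.06 and 1.23 in Control and 0.87, 0.98 and 0.91 in MA (log2 of linear levels), and every MA library lay below every Control library. The mean difference was -0.31 with an exact permutation p of 0.1, the smallest possible, and 0.35 after adjustment over the 7 ratios. The ratio of Cd74 to H2-Aa did not separate them, at 1.37 ± 0.34 in Control and 1.38 ± 0.52 in MA (SD, n = 3 each), with an exact permutation p of 1. Of 11 tested class II genes, 0 had an adjusted p under 0.05 and the median log2 difference was 0.05. The difference was above 0 for 8, as it was for 6296 of all 13321 tested genes. All MA libraries lay above all Control libraries for 2 of the 11 (Ctsd and Ifi30) and below them for 1 (H2-DMa), against 7.32% and 10.2% of all tested genes. At an unadjusted p under 0.05, 1 was higher and 0 lower, against 4.99% and 5.46% of all tested genes. That one was Ctsd, the lysosomal protease cathepsin D, which measured 7.14, 7.14 and 7.20 in Control and 7.39, 7.42 and 7.23 in MA (log2 difference 0.19, adjusted p = 0.467). Ctsb and Lgmn, also lysosomal proteases, differed by -0.01 and 0.01 (log2, adjusted p = 0.976 and 0.979).

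**Figure D3:**
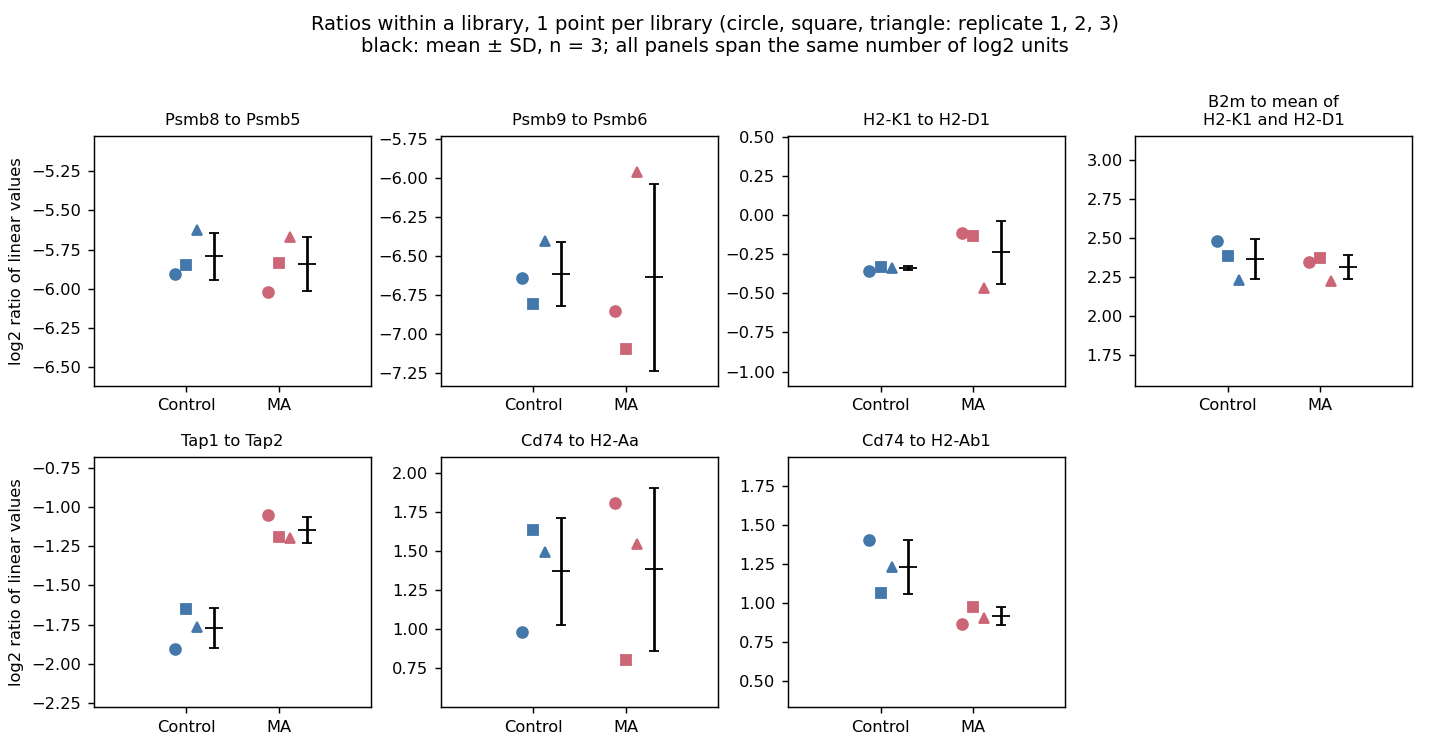
Log2 ratio of linear levels within each library for 7 pairs of partner genes, with Control in blue, MA in red, marker shape for the replicate number and black bars for the mean ± SD (n = 3). Tap1 to Tap2 lies higher in all MA libraries, from -1.19 to -1.05 against -1.91 to -1.65, Cd74 to H2-Ab1 lies lower in all of them, and the other 5 ratios overlap.

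Immune cell types and endothelium were looked at through their markers. Microglial markers, 15 of 15 tested, had a median log2 difference of -0.12, 0 had an adjusted or unadjusted p under 0.05, and their summed linear levels were 355 to 389 in Control and 361 to 367 in MA. Border macrophage markers summed to 13.1 to 14.3 in Control and 11.6 to 16.4 in MA. The dendritic cell and monocyte list, with 5 of 10 markers past the filter, summed to 7.24 to 7.92 in Control and 5.86 to 13.7 in MA, and the highest sum was that of MA replicate 3. Flt3 lay between 1.46 and 1.82 and Zbtb46 between 1.06 and 1.51 over the 6 libraries (log2), S100a8 and S100a9 reached 2.37 and 2.54 in MA replicate 3, and Itgax and Ccr2 lay at or below 0.09 throughout. Of 9 T and natural killer cell markers in the table, 1 passed the filter, and they summed to 0.996 to 2.09 in Control and 1.83 to 2.91 in MA. That marker was Trac, a T cell receptor chain, at 1.05, 0.81 and 0.67 in Control and 1.20, 0.91 and 1.61 in MA (log2 difference 0.40, limma adjusted p = 0.546). Cd4 reached 1.10 in Control replicate 2 and Cd3g 0.82 in MA replicate 2, while Cd3e lay at 0.02 to 0.27 and Cd8a at 0 to 0.08 (log2). Of 3 B cell markers in the table, 1 passed the filter, and they summed to 4.03 to 7.59 in Control and 4.25 to 5.94 in MA. Endothelial markers, a class I-rich cell type, had a median log2 difference of 0.07, and 9 of 10 were above 0, as were 6296 of all 13321 tested genes. Cldn5, of the tight junctions of brain vessels, averaged 5.05 in Control and 5.35 in MA and was higher in every MA library (log2 difference 0.30, limma adjusted p = 0.241). Slco1a4, a carrier of the blood-brain barrier, measured 3.37, 3.66 and 3.79 in Control and 4.85, 4.57 and 3.70 in MA, with MA replicate 3 inside the Control range (log2 difference 0.77, adjusted p = 0.413). The part of these cell types in the values of the 10 genes was not tested.

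None of 14 tested genes for peptide supply and loading had an adjusted p under 0.05, and the median log2 difference was -0.06. At an unadjusted p under 0.05, 2 were lower and 0 higher, against 5.46% and 4.99% of all tested genes. The 2 lower genes encode chaperones of the endoplasmic reticulum in the loading complex, with wider roles in folding glycoproteins. Calr, calreticulin, measured 7.95, 7.61 and 7.75 in Control and 7.35, 7.33 and 7.39 in MA (log2). All MA values lay below the Control values, and the log2 difference was -0.41 (SE 0.10, limma adjusted p = 0.219). Pdia3, the disulfide isomerase ERp57, measured 6.47, 6.18 and 6.39 in Control and 5.94, 6.00 and 6.04 in MA. It too was lower in every MA library, by -0.35 (log2, adjusted p = 0.265). Calnexin, encoded by Canx, a relative of calreticulin that acts earlier in folding, differed by 0.01 (log2, adjusted p = 0.994).

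Of 20 tested regulators of MHC genes, 16 had a log2 difference below 0, as did 7025 of all 13321 tested genes. The median was -0.07, and 0 had an adjusted p under 0.05. At an unadjusted p under 0.05, 2 were lower, against 5.46% of all tested genes. Nfya encodes a subunit of nuclear factor Y, the factor whose CCAAT motif is the ATTGG box of the stretches printed above for H2-K1, H2-D1 and B2m. It measured 3.08, 3.14 and 3.11 in Control and 2.58, 2.51 and 2.61 in MA (log2). The groups were well apart, with SDs of 0.03 and 0.05 (n = 3 each). The log2 difference was -0.55 (SE 0.09, 95% interval -0.75 to -0.34), with an unadjusted limma p of 0.000349 and an adjusted p of 0.0783. Its partner subunits differed less, Nfyb by -0.05 and Nfyc by -0.08 (log2, adjusted p = 0.882 and 0.908). Whether the level of Nfya bears on H2-K1, H2-D1 or B2m was not tested. Irf9, a subunit of the transcription factor activated by type I interferon, measured 2.92, 2.81 and 2.71 in Control and 2.46, 2.03 and 2.50 in MA (log2 difference -0.48, adjusted p = 0.335), also without overlap. Rfxap, a subunit of the RFX complex, and Jak1, a kinase of the interferon receptors, differed by -0.30 and -0.05 (log2, adjusted p = 0.505 and 0.937).

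The master coactivators of both classes were barely present. Nlrc5, the coactivator of class I genes, lay between 0.26 and 0.60 in Control and between 0.41 and 0.51 in MA (log2). Ciita, the coactivator of class II genes, lay between 0.01 and 0.09 in Control and between 0.04 and 0.12 in MA. Neither passed the filter, so neither was tested. Their groups overlapped.

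Of 23 tested interferon-stimulated genes, 0 had an adjusted p under 0.05, 6 had a log2 difference above 0 and 17 below, and the median was -0.07. At an unadjusted p under 0.05, 1 was higher and 0 lower, against 4.99% and 5.46% of all tested genes. That one was Lgals3bp, a secreted glycoprotein, which measured 3.20, 3.22 and 3.04 in Control and 3.44, 3.32 and 3.81 in MA (log2 difference 0.37, adjusted p = 0.429). All MA libraries lay above all Control libraries for 1 of the 23 and below them for 3 (Gbp2, Irgm2 and Igtp), against 7.32% and 10.2% of all tested genes. Ifi27 and Bst2, the most abundant on the list with Lgals3bp, both had their highest values in MA replicate 3. Ifi27 reached 6.86 there, against 6.19 and 6.22 in the other MA libraries, and Bst2 reached 4.26 against 3.34 and 3.54. Their log2 differences were 0.43 and 0.07 (adjusted p = 0.529 and 0.946). Lgals3bp and Xaf1 were also highest in MA replicate 3, but most of the list was not. Isg15, Irf7, Gbp2, Irgm2 and Igtp, for example, were highest in Control replicate 3. Over the 6 lists together (93 genes in the table, 84 tested), 0 had an adjusted p under 0.05, and the median log2 difference was -0.04. At an unadjusted p under 0.05, 3 were higher and 4 lower, against 4.99% and 5.46% of all tested genes. All MA libraries lay above all Control libraries for 6 of the 84 and below them for 8, against 7.32% and 10.2% of all tested genes. Of the 84, 50 lay below 0, as did 7025 of all 13321 tested genes.

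**Figure D4:**
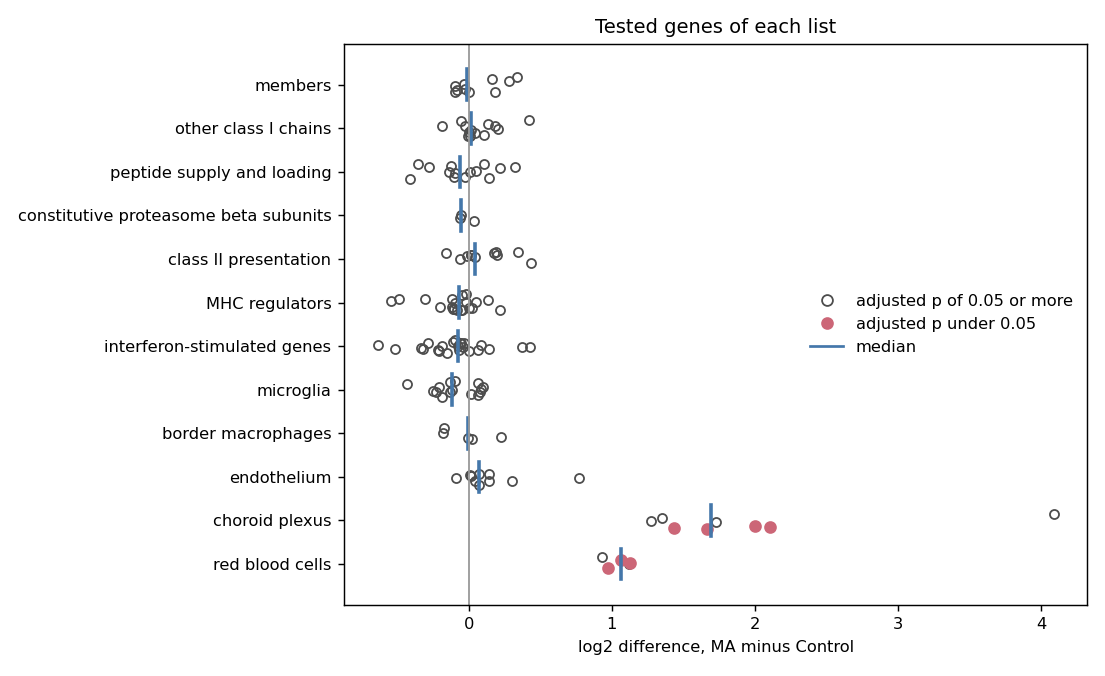
Log2 difference, MA minus Control, of every tested gene in the 10-gene set, in 6 related pathway lists and in 5 cell type lists; filled points have an adjusted p under 0.05 (limma) and the blue bars are medians. The pathway lists lie around 0 without a filled point, and filled points occur only among the choroid plexus and red blood cell lists.

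By mean level over the 6 libraries on the length-normalised log2 scale, the order was B2m at 7.21, H2-D1 at 5.05, H2-K1 at 4.77, Tapbp at 3.59, H2-T23 at 3.37, Cd74 at 2.31, Psmb8 at 2.28, Tap2 at 2.24, Psmb9 at 1.70 and Tap1 at 1.25. The upper gene of each neighbouring pair was higher in 6 of 6 libraries down to Cd74. Cd74, Psmb8 and Tap2 could not be ordered, since each was above the next in only 3 of 6 libraries. Tap2 exceeded Psmb9 in 6 of 6 and Psmb9 exceeded Tap1 in 5 of 6. B2m and the classical heavy chains thus stood at the top of the order in every library.

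A pattern by library ran through the set. MA replicate 3 had the highest value of all 6 libraries for 8 of the 10 genes and the lowest for 0. Over all tested genes it was the highest for 25.6% and the lowest for 29.8%. The exceptions were B2m, highest in Control replicate 1, and H2-K1, highest in Control replicate 3. MA replicate 2 was the lowest library for 3 of the 10. The summed linear level of the 10 genes was 234 to 252 in Control and 221 to 256 in MA, with the lowest sum in MA replicate 2 and the highest in MA replicate 3. The same library had the highest choroid plexus sum (5080, against 1780 and 2311 in the other MA libraries), and whether that bears on the 10 genes was not tested.

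**Figure D5:**
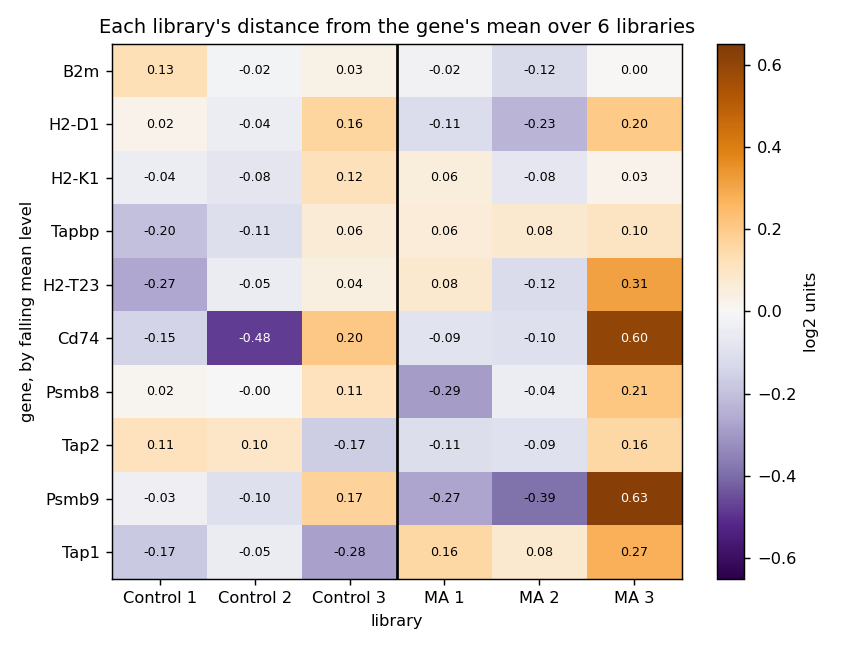
Distance (log2 units) of each library from the gene's mean over the 6 libraries, with genes ordered by mean level and the line dividing Control from MA. The MA replicate 3 column is at or above 0 for all 10 genes, reaching 0.63 for Psmb9 and 0.60 for Cd74, and Tap1 is the row with all Control libraries below 0 and all MA libraries above it.

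The genes whose profile over the 6 libraries lay nearest the mean centred profile of H2-D1, H2-K1 and B2m were Slco1c1, at a root-mean-square difference of 0.023 log2 units, Rhoa at 0.028, Sec22b at 0.028, Ccdc92 at 0.033 and Hat1 at 0.034. Slco1c1 encodes a thyroid hormone carrier of brain endothelium and astrocytes, Rhoa a small GTPase of the cytoskeleton and Sec22b a protein of vesicle fusion between the endoplasmic reticulum and the Golgi. Their log2 differences between the groups lay between -0.09 and -0.05, with limma adjusted p values of 0.754 to 0.924. They were picked from the tested genes outside the lists by this distance, so it is a description. The profile is an average that the 3 class I genes did not each follow. The highest library was MA replicate 3 for H2-D1, Control replicate 3 for H2-K1 and Control replicate 1 for B2m.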

How the data were processed

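Messenger RNA of the hippocampus was sequenced from 3 mice labelled MA and 3 labelled Control, 1 library each. The study's methods name Hisat2, featureCounts, an FPKM calculation and DESeq2, whereas the submitters' processing notes name Bowtie 0.12.2 and the builds mm8 and mm9. The values the authors deposited are log2 values in a table named for RPKM. The transform and the scaling between libraries are not described, and an offset of 1 was read from the lowest value of 0. Of the value columns, 0 were left unmapped.

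The deposited values were fitted with limma 3.58.1 in R 4.3.3 (lmFit, eBayes with a trend), MA against Control, with no covariate, on the 13321 genes that reached a linear value of 0.5 in 3 or more of 6 libraries. Ratios within a library were compared with exact two-sided permutation tests (smallest p 0.1). The fit was tested on simulated data. Text names all 10 genes, a set of partner genes, and from each pathway list the genes at an unadjusted p under 0.05 and the 3 most abundant, from cell type lists genes at an unadjusted p under 0.05, of which those bearing on a result are given. The genes and lists were chosen with earlier results of these data known. Positions, overlaps and promoter windows came from GENCODE M21 and RefSeq. Alternatives were other filters, pseudocounts of 0.1 and 0.01, other scalings, no trend, sample weights, a replicate block and leaving out each library.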

Additional observations from a re-analysis of the deposited data

How the results depend on the processing

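In the main fit and under all 15 alternatives, 0 of the 10 genes had an adjusted p under 0.05 where tested. Tap1, Tap2, Psmb8, Psmb9 and Cd74 were tested under 14 of the alternatives. They fell short of the filter of a mean linear value of at least 5. Over all tested genes the count of 35 became 3 with no filter, 20 with a mean linear value of at least 5, 586 with sample quality weights and 0 to 257 as each library was left out, the highest without MA replicate 3. The count of 7 surrounding list genes at an unadjusted p under 0.05 became 19 with weights and 5 to 18 as each library was left out. Tap1 kept its sign, at 0.26 to 0.59 (log2), with adjusted p values of 0.152 to 0.827, and was not tested under the higher filter. Without MA replicate 3, 3 of the 10 genes (Tap1 higher, H2-D1 and Psmb9 lower) had an unadjusted p under 0.05, against 23.3% of all tested genes. In that setting 4 ratios did not overlap, against 2 with all libraries, but groups separate more easily with fewer libraries. With weights, 2 of the 10 had an unadjusted p under 0.05, against 26.3% of all tested genes.

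The sign turned for genes with differences near 0. H2-K1 was -0.024 (log2) with weights. As each library was left out, H2-K1 ranged from -0.037 to 0.062, Tap2 from -0.12 to 0.020, Psmb8 from -0.21 to 0.042 and Psmb9 from -0.34 to 0.16. Among the ratios, Psmb8 to Psmb5 ranged from -0.14 to 0.039, Psmb9 to Psmb6 from -0.36 to 0.21, B2m to the heavy chains from -0.12 to 0.007 and Cd74 to H2-Aa from -0.20 to 0.31. The other genes kept their sign, H2-D1 from -0.22 to -0.0053, H2-T23 from 0.070 to 0.29, B2m from -0.13 to -0.058, Tapbp from 0.10 to 0.23 and Cd74 from 0.048 to 0.45. H2-T23 was 0.034 and Cd74 0.14 with weights, and H2-D1 was -0.21. The cause was not tested.

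No source says that replicate numbers pair the mice, and the correlations between same-numbered libraries' deviations from their group means were -0.20, -0.24 and -0.34. With the replicate number as a block, 15 of all tested genes had an adjusted p under 0.05, and Tap1 had an unadjusted p of 0.0628 (adjusted p = 0.827). Depth is unknown, so its limit on the scarce genes, such as Tap1, could not be given.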
